A study of Arabidopsis thaliana with 24 samples.

Results

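The 10 loci described here encode enzymes of early flavonoid and flavonol synthesis in Arabidopsis. They were taken by locus identifier from the 33977 gene identifiers of the count tables, and all 10 were found. They are *CHS* (AT5G13930), *CHI* (AT3G55120), *CHIL* (AT5G05270), *F3H* (AT3G51240), *F3'H* (AT5G07990), *FLS1* (AT5G08640), *UGT78D1* (AT1G30530), *UGT78D2* (AT5G17050), *UGT89C1* (AT1G06000) and *RHM1* (AT1G78570). These loci were chosen with earlier results of these data known. Shares of all genes given beside them below are therefore description and no independent test. The study asked how HY5, a bZIP transcription factor of light signalling, shapes the response of the shoot and the root to warm ambient temperature. Its 24 RNAseq libraries fall into 8 groups of 3: shoot and root, each from Col-0 (the wild type and reference accession) and from the mutant *hy5*, kept at 22 °C or moved to 28 °C for 4 h. Seedlings of all groups were raised for 5 days at 22 °C in white light on sucrose-free medium. The labels write *hy5* and the study's methods name the allele *hy5-215*, 1 allele in the Col-0 background. The labels name the upper tissue hypocotyl, whereas the study describes it as hypocotyl with cotyledon, and it is called shoot here. A design text beside the labels gives a longer treatment, and the study's methods give older seedlings. Groups were taken from the sample titles, since a genotype field beside them gives 1 genotype for all upper samples and the other for all root samples.

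Flavonoids are phenolic compounds that plants make from a phenylpropanoid precursor and malonyl units, and flavonols are the class that screens ultraviolet light in seedlings and is known to affect auxin movement in the root. Chalcone synthase (CHS) takes the first committed step, chalcone isomerase (CHI) closes the ring, and flavanone 3-hydroxylase (F3H) gives the dihydroflavonol. The CHI-like protein (CHIL) is non-catalytic and binds CHS. Flavonoid 3′-hydroxylase (F3'H) adds a hydroxyl group to the B ring, and flavonol synthase 1 (FLS1) makes the flavonols kaempferol and quercetin. The glycosyltransferases UGT78D1, UGT78D2 and UGT89C1 then attach rhamnose or glucose, for which RHM1 makes UDP-rhamnose. HY5 is known to bind ACGT-containing elements such as the G-box, and the MYB factors MYB11, MYB12 and MYB111 are known to activate the early genes.

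The windows of 250 bases before the annotated transcript start were read from the RefSeq genome TAIR10.1, since most of the early enzymes differed between the genotypes in the same direction in the root counts below. All 10 members matched the annotation. They lie on 3 chromosomes (1, 3 and 5). The windows were searched on both strands for the G-box CACGTG, for the ACGT core, which every G-box holds, and for the MYB elements ACCTACC and ACCTAAC. A G-box was found in 3 of 10 windows (*CHS*, *CHIL* and *F3H*), against 6.49% of 27443 windows of the same length before annotated protein-coding genes. An ACGT core was found in 4 of 10, *UGT89C1* being the other, against 44.1%. ACCTACC was found before *UGT89C1* alone (1.16% of all windows) and ACCTAAC before *CHIL* alone (2.46%). The windows of *CHI*, *F3'H*, *FLS1*, *UGT78D1*, *UGT78D2* and *RHM1* held none of these letters. The 4 windows with a match and that of *FLS1* are printed 5′ to 3′, with each match on either strand in capitals. *FLS1* is shown because its level differed most between the genotypes and its window held no match.
CHS: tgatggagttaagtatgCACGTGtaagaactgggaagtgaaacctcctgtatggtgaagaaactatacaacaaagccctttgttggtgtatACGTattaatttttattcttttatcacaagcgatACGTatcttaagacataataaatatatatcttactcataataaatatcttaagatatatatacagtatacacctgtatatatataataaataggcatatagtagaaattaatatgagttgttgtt
CHIL: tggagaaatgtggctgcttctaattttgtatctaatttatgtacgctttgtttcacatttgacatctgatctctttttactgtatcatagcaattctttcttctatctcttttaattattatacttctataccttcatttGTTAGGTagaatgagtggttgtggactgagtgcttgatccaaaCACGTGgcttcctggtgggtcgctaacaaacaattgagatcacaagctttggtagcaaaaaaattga
F3H: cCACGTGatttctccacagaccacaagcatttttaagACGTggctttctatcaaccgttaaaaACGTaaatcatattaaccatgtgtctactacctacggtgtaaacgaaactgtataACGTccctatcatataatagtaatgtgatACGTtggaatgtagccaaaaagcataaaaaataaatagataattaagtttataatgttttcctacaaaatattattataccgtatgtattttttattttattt
UGT89C1: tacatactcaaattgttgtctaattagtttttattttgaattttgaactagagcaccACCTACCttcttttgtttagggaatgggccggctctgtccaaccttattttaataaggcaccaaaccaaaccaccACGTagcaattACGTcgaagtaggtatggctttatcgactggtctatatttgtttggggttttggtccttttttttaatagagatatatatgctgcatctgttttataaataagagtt
FLS1: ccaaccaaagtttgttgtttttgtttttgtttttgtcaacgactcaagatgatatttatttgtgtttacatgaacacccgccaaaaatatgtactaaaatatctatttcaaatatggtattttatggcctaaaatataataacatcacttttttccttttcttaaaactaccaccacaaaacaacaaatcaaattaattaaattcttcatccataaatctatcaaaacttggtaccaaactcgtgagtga
These windows lie at chr5:4488226-4488475, plus strand (*CHS*), at chr5:1563036-1563285, plus strand (*CHIL*), at chr3:19024942-19025191, plus strand (*F3H*), at chr1:1821895-1822144, minus strand (*UGT89C1*) and at chr5:2803583-2803832, plus strand (*FLS1*). The G-box begins 233 bases before the start of *CHS*, 67 bases before that of *CHIL* and 249 bases before that of *F3H*, where it stands at the edge of the window. A match is a run of letters and was not tested as a binding site.

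Total counts on genes ran from 2620219 to 3781032 per shoot library and from 1212281 to 3078290 per root library, and the Col-0 root libraries at 22 °C (1212281 to 1828946) were the shallowest. The reads of 3′Tag-Seq come from near the 3′ end of a transcript, so a count does not grow with transcript length. Comparisons of levels between genes still rest on how reads were assigned to each gene, which was not tested. Levels are CPM, counts divided by the library total and put on a common scale, after scaling by trimmed means over all 24 libraries. One count was the smallest step, and the floor of 3 counts stood at 0.768 to 2.02 CPM in the root and at 1.07 to 1.52 CPM in the shoot. Summed over 6 leaf photosynthesis markers the level was 30128 to 63719 CPM in shoot and 303 to 763 CPM in root libraries, and over 6 root markers it was 3685 to 6124 CPM in root and 1096 to 2066 CPM in shoot libraries. All 6 leaf markers were above the floor in every root library and 3 of the 6 root markers in every shoot library. The Col-0 shoot library 1 at 22 °C was the highest of its group for 10 of 10 members, and the Col-0 shoot library 3 at 28 °C was the lowest of its group for 10 of 10. Results that rest on these libraries are also given without them. Nothing in the sources says which seedlings were pooled, and the p-values measure the spread between the 3 libraries of a group.

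*HY5*, the mutated gene, was at 44.5, 48.9 and 63.2 CPM in the Col-0 root and at 12.9, 17.4 and 10.4 CPM in the *hy5* root at 22 °C. At 28 °C it was at 50.1, 51.9 and 44.0 CPM in the Col-0 root and at 10.2, 9.99 and 7.97 CPM in the *hy5* root. The root groups did not overlap, and *HY5* mRNA fell by 1.92 ± 0.21 (log2, SE) at 22 °C and by 2.35 ± 0.18 at 28 °C (adjusted p = 3.75e-07 and 3.95e-10). In the shoot at 22 °C it was at 32.0, 25.1 and 33.3 CPM in Col-0 and at 19.2, 19.9 and 25.3 CPM in *hy5*. In the shoot at 28 °C the values were 21.4, 14.7 and 17.7 CPM in Col-0 and 14.5, 8.12 and 14.8 CPM in *hy5*, with log2 differences of -0.53 and -0.57 that were not called. This allele is known to carry a base substitution and not a deletion, so a tag near the 3′ end does not by itself check the labels.

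All 10 loci were read in every group, and their levels spanned a wide range. *CHS* was the most abundant in the Col-0 root at 22 °C, with a mean of 490 ± 95 CPM (SD, n = 3), followed without overlap by the Col-0 root at 28 °C (273 ± 7.2) and the Col-0 shoot at 22 °C (140 ± 36). The next 4 groups of *CHS*, from the *hy5* shoot at 22 °C (58.7 CPM) to the *hy5* shoot at 28 °C (28.6 CPM), overlapped with their neighbours. The *hy5* root at 28 °C came last at 4.64 ± 2.1 CPM. The same group was lowest for *CHI*, *CHIL*, *F3H*, *F3'H*, *FLS1*, *UGT78D1* and *UGT78D2*. *UGT78D1*, the flavonol 3-O-rhamnosyltransferase, had another order: its 4 shoot groups (25.4 to 48.1 CPM) were all above its 4 root groups (0.730 to 6.74 CPM). *RHM1* and *UGT89C1* varied least. *RHM1* means ran from 46.9 CPM in the *hy5* shoot at 22 °C to 171 CPM in the Col-0 root at 28 °C, and *UGT89C1*, the flavonol 7-O-rhamnosyltransferase, ran from 9.91 CPM in the Col-0 shoot at 28 °C to 41.3 CPM in the Col-0 root at 22 °C.

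**Figure D1:**
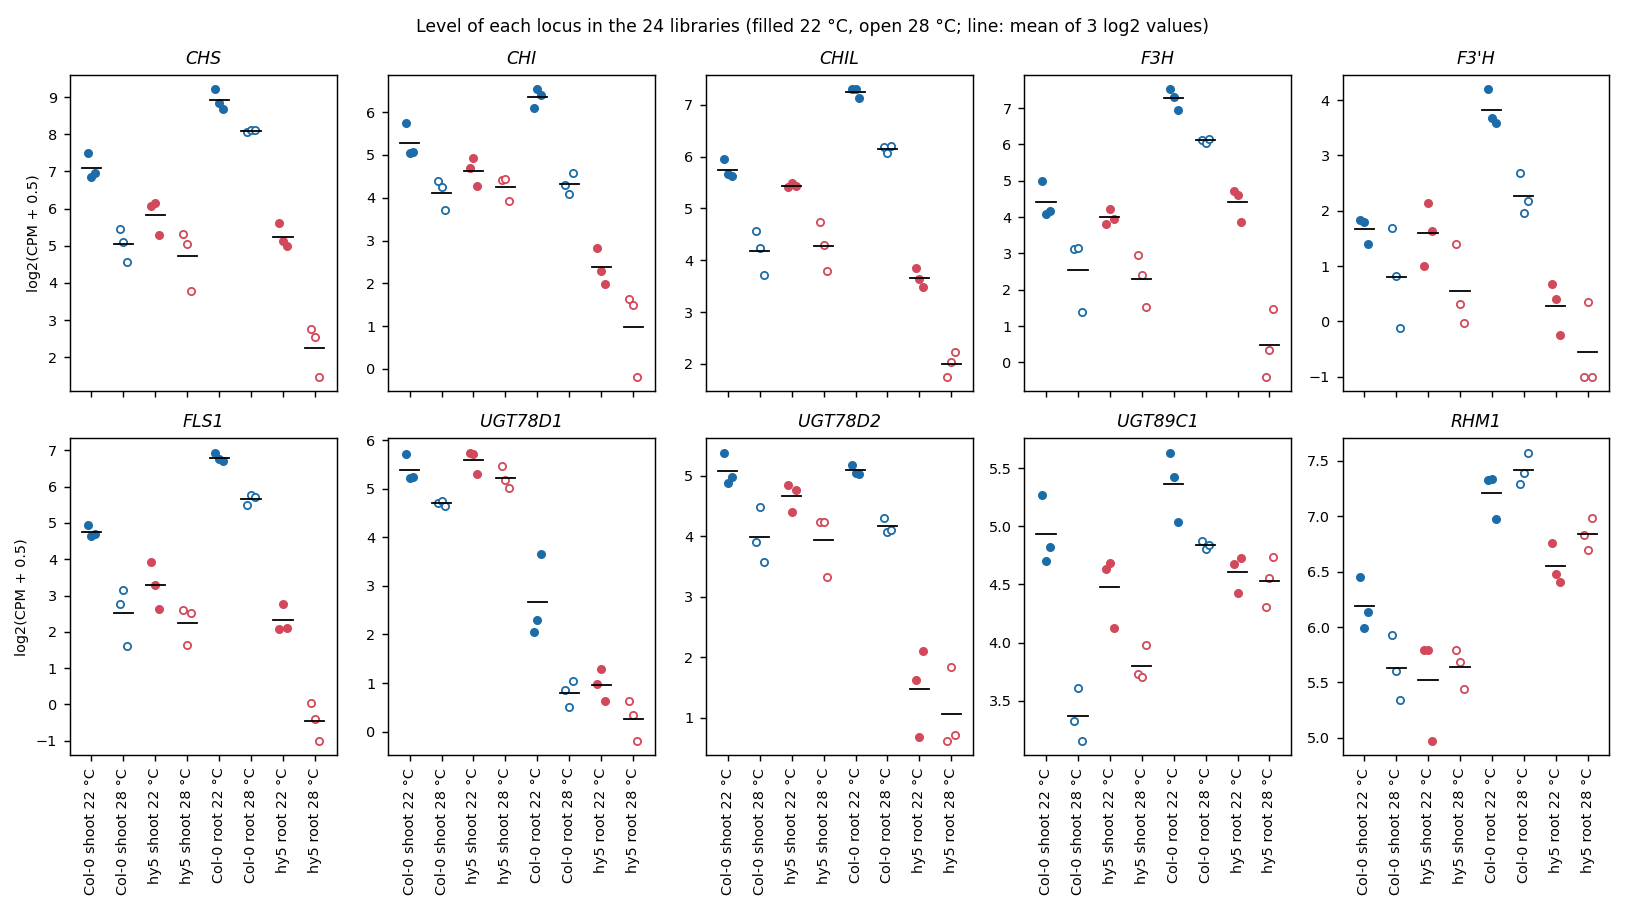
Level of each of the 10 loci in the 24 libraries, as log2(CPM + 0.5) on the vertical axis, by group on the horizontal axis (blue, Col-0; red, *hy5*; filled, 22 °C; open, 28 °C; line, mean of the 3 log2 values). Col-0 root libraries stand highest and *hy5* root libraries at 28 °C lowest for most loci, with *CHS* between 414 and 596 CPM in the Col-0 root at 22 °C and between 2.28 and 6.25 CPM in the *hy5* root at 28 °C, whereas *UGT78D1* is highest in the shoot.

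In the root at 22 °C, the early enzymes were lower in *hy5* than in Col-0 by 7.37-fold (*F3H*) to 23.5-fold (*FLS1*), and *UGT89C1* and *RHM1* by less than 2-fold. Of 9 members tested, 7 fell by at least 2-fold at an adjusted p of at most 0.05 and none rose. Over all 15628 genes tested, 5.78% were called and 2.89% were called lower. All 9 tested members had every *hy5* library below every Col-0 library, against 12.6% of all genes. *UGT78D1* was too low to be tested. The median log2 fold change of the 9 was -3.70, against -0.01 over all genes, and -3.65 with *F3'H* set to the near end of its counting interval. In bulk tissue, fewer cells of a type and less RNA per cell cannot be told apart.

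At the entry, *CHS* was at 596, 460 and 414 CPM in the Col-0 root and at 48.6, 34.5 and 31.5 CPM in the *hy5* root at 22 °C. The lowest Col-0 library was several times above the highest *hy5* library, and *CHS* fell by 3.70 ± 0.17 on the log2 scale, or 13.0-fold (SE, adjusted p = 6.98e-14, edgeR quasi-likelihood test). *CHI* was at 68.4, 92.8 and 84.7 CPM in Col-0 and at 6.62, 4.42 and 3.46 CPM in *hy5*. Its groups were apart too, with a change of -4.10 ± 0.23 (adjusted p = 3.69e-12). *CHIL*, whose protein binds CHS and raises the flux into chalcones, was at 157, 158 and 139 CPM in Col-0 and at 14.0, 11.9 and 10.7 CPM in *hy5*. Its replicates lay close together within each genotype, and it fell by 3.65 ± 0.17 (adjusted p = 6.98e-14).

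*F3H* was at 184, 159 and 124 CPM in the Col-0 root and at 25.8, 24.0 and 14.2 CPM in the *hy5* root at 22 °C. It kept the highest share of its Col-0 level among the 7 called members, with a change of -2.88 ± 0.19 or 7.37-fold (adjusted p = 5.30e-11). *F3'H* was at 17.9, 12.3 and 11.4 CPM in Col-0 and at 1.1, 0.829 and 0.346 CPM in *hy5*, where each library held 1 to 3 counts. Its 81 counts in Col-0 against 7 in *hy5* gave a level 18.8-fold higher in Col-0, with an exact 95% interval of 8.70 to 48.1 that covers counting error only. The fitted change of *F3'H* was -4.14 ± 0.48 (adjusted p = 8.22e-07). *FLS1*, the main flavonol synthase of the seedling, was at 122, 107 and 105 CPM in Col-0 and at 3.68, 6.35 and 3.81 CPM in *hy5*. The groups were far apart, and the change of -4.56 ± 0.21 or 23.5-fold (adjusted p = 6.98e-14) had the largest fitted size among the 9.

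The glycosylation genes differed among themselves. *UGT78D2*, the flavonoid 3-O-glucosyltransferase, was at 35.8, 32.6 and 32.3 CPM in the Col-0 root and at 2.58, 1.1 and 3.81 CPM in the *hy5* root at 22 °C. It fell by 3.79 ± 0.32 (adjusted p = 3.89e-09), like the early enzymes and without overlap. *UGT89C1* was at 49.1, 42.5 and 32.3 CPM in Col-0 and at 25.0, 21.0 and 26.0 CPM in *hy5*. *RHM1* was at 160, 161 and 125 CPM in Col-0 and at 108, 88.7 and 84.1 CPM in *hy5*. Both genes were lower in every *hy5* library, by less than 2-fold: the log2 differences were -0.82 ± 0.19 for *UGT89C1* (adjusted p = 0.00478) and -0.69 ± 0.14 for *RHM1* (adjusted p = 0.00127). *UGT78D1* held 35 counts over the 3 Col-0 root libraries and 14 over the 3 *hy5* root libraries, a ratio of 4.05 (exact 95% interval 2.13 to 8.15, counting error only), with 1 Col-0 library at 12.1 CPM and the others at 3.67 and 4.44 CPM.

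Leaf markers summed to 636 to 763 CPM in the Col-0 root and to 322 to 427 CPM in the *hy5* root at 22 °C, and all 6 were lower by the adjusted p, 1 of them by at least 2-fold. Root markers summed to 5428 to 6124 CPM in the Col-0 root and to 3685 to 4012 CPM in the *hy5* root, and 1 of the 6 was lower and 2 were higher by the adjusted p, the latter by at least 2-fold. At 28 °C the leaf markers summed to 360 to 480 CPM in Col-0 and 303 to 607 CPM in *hy5*, and the root markers to 4186 to 4326 CPM and 4469 to 4685 CPM, where 0 leaf and 3 root markers passed the adjusted p and none reached 2-fold. The part of these shifts at 22 °C in the result was not tested.

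At 28 °C the root separated the genotypes further for 3 enzymes. Again 7 of 9 tested members fell in *hy5* and none rose, against 4.84% of 16514 genes called and 1.70% called lower. All 9 had no overlap between genotypes, against 13.8% of genes. *CHS* was at 265, 276 and 279 CPM in Col-0 and at 6.25, 5.38 and 2.28 CPM in *hy5*. The Col-0 values were tight while the *hy5* values were near the bottom of the range, and *CHS* fell by 5.79 ± 0.17 or 55.3-fold (adjusted p = 1.09e-18). *F3H* was at 69.8, 65.5 and 70.9 CPM in Col-0 and at 0.261, 0.768 and 2.28 CPM in *hy5*, or 654 counts against 10. Its level was 71.3-fold higher in Col-0 by pooled counts (exact 95% interval 38.5 to 149, counting error only), with a fitted change of -6.09 ± 0.29 (adjusted p = 3.04e-14) that became -6.95 without *hy5* library 3. *FLS1* was at 44.5, 54.1 and 52.0 CPM in Col-0 and at 0.521, 0.256 and 0 CPM in *hy5*, or 479 counts against 3. By pooled counts this was 174-fold (exact 95% interval 59.2 to 847, counting error only), and the fitted value of -7.26 (adjusted p = 4.22e-14) ran to -8.02 without *hy5* library 1.

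The other early enzymes at 28 °C lay within the range seen at 22 °C. *CHI* was at 19.3, 16.4 and 23.2 CPM in the Col-0 root and at 2.61, 2.31 and 0.379 CPM in the *hy5* root. It fell by 3.33 ± 0.34 (adjusted p = 7.71e-08), with the Col-0 level itself much lower than at 22 °C. *CHIL* was at 71.7, 66.8 and 73.1 CPM in Col-0 and at 2.87, 3.59 and 4.17 CPM in *hy5*. It fell by 4.32 ± 0.20 or 20.0-fold (adjusted p = 3.04e-14), again without overlap. *F3'H* held 42 counts in Col-0 and 3 in *hy5*, all 3 in *hy5* library 2. Its ratio by pooled counts was 15.3 (exact 95% interval 4.88 to 77.0, counting error only), and its fitted change of -3.77 (adjusted p = 5.11e-04) was -6.83 without that library.

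*UGT78D2* was at 19.3, 16.4 and 16.7 CPM in the Col-0 root and at 1.04, 3.07 and 1.14 CPM in the *hy5* root at 28 °C, and fell by 3.23 ± 0.35 (adjusted p = 1.32e-07; -3.95 without *hy5* library 2). *RHM1* was at 156, 167 and 190 CPM in Col-0 and at 113, 103 and 126 CPM in *hy5*, a difference of -0.58 ± 0.11 (adjusted p = 5.44e-04) below 2-fold. *UGT89C1* was at 28.8, 27.5 and 28.2 CPM in Col-0 and at 19.3, 23.1 and 26.2 CPM in *hy5*. Although its groups did not overlap, its difference of -0.31 ± 0.17 did not pass the test (adjusted p = 0.299). *UGT78D1* held 12 and 8 counts and was not tested. The median of the 9 was -3.77, the value of *F3'H* itself, and -3.33 with *F3'H* and *FLS1* set to the near end of their counting intervals, against a median near 0 over all genes.

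The shoot showed a smaller difference that was present at 22 °C. Of 9 tested members (*F3'H* was too low), 2 fell in *hy5*, *CHS* and *FLS1*, against 1.73% of 15548 genes called and 1.04% called lower. *CHS* was at 181, 115 and 123 CPM in Col-0 and at 66.7, 70.5 and 38.8 CPM in *hy5*. The groups did not overlap, and it fell by 1.29 ± 0.14 or 2.44-fold (adjusted p = 1.21e-09). *FLS1* was at 30.2, 24.3 and 25.6 CPM in Col-0 and at 14.6, 9.26 and 5.67 CPM in *hy5*. It fell by 1.51 ± 0.24 or 2.85-fold (adjusted p = 5.06e-06), and leaving out any library kept the same 2 calls.

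*CHI* was at 53.5, 32.8 and 32.9 CPM in the Col-0 shoot and at 25.3, 29.9 and 18.7 CPM in the *hy5* shoot at 22 °C, a difference of -0.72 ± 0.18 (adjusted p = 0.00482). *RHM1* was at 86.8, 63.0 and 69.6 CPM in Col-0 and at 55.1, 54.8 and 31.0 CPM in *hy5*, a difference of -0.68 ± 0.14 (adjusted p = 7.06e-04). Both were under 2-fold without overlap, and with *CHS* and *FLS1* they made 4 of 9 members lower by the adjusted p alone, against 4.24% of genes. Without the Col-0 shoot library 1 *CHI* was at -0.45 and no longer passed (adjusted p = 0.159), which left 3 of 9. With library size in place of trimmed means *CHIL*, *UGT78D2* and *UGT89C1* passed as well. That setting moved the median of all genes to -0.10, and the share of all genes passing under it was not computed. *CHIL*, *UGT78D2* and *UGT89C1* were also lower in every *hy5* library, by -0.36, -0.49 and -0.50, and did not pass the test (adjusted p = 0.0813, 0.0704 and 0.0844). In all, 7 of 9 members had no overlap in the lower direction, against 9.52% of genes. *F3H* (-0.51, adjusted p = 0.168) and *UGT78D1* (0.15, adjusted p = 0.622) overlapped between the genotypes. The median of the 9 was -0.51, against a median near 0 over all genes.

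In the shoot at 28 °C, 0 of 9 tested members were called in *hy5*, against 1.82% of 15702 genes. *CHS* was at 43.6, 34.0 and 23.2 CPM in Col-0 and at 39.5, 32.9 and 13.3 CPM in *hy5*, with overlapping groups and a difference of -0.24 ± 0.26 (adjusted p = 0.697). *FLS1* was at 6.36, 8.39 and 2.53 CPM in Col-0 and at 5.53, 2.58 and 5.24 CPM in *hy5*, also overlapping, with a difference of -0.43 ± 0.43 (adjusted p = 0.668). *UGT78D1* was at 25.4, 26.4 and 24.4 CPM in Col-0 and at 43.8, 35.8 and 31.9 CPM in *hy5*. Its groups were apart in the higher direction, by 0.52 ± 0.16 (adjusted p = 0.0676). *UGT89C1* was also apart in that direction, by 0.41 ± 0.25 (adjusted p = 0.410). The share of all genes apart in that direction was not computed. The median of the 9 was -0.02, against 0.01 over all genes. DESeq2 also called 0 of the 9 by the same thresholds. Leaf markers were higher in the *hy5* shoot, at 60893 to 63719 CPM against 39120 to 46883 CPM in Col-0 at 22 °C and at 47875 to 48866 CPM against 30128 to 37166 CPM at 28 °C. By the adjusted p alone 6 of 6 leaf markers were higher in *hy5* at 22 °C and 5 of 6 at 28 °C, none by 2-fold, and the part of this shift in the results was not tested.

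**Figure D2:**
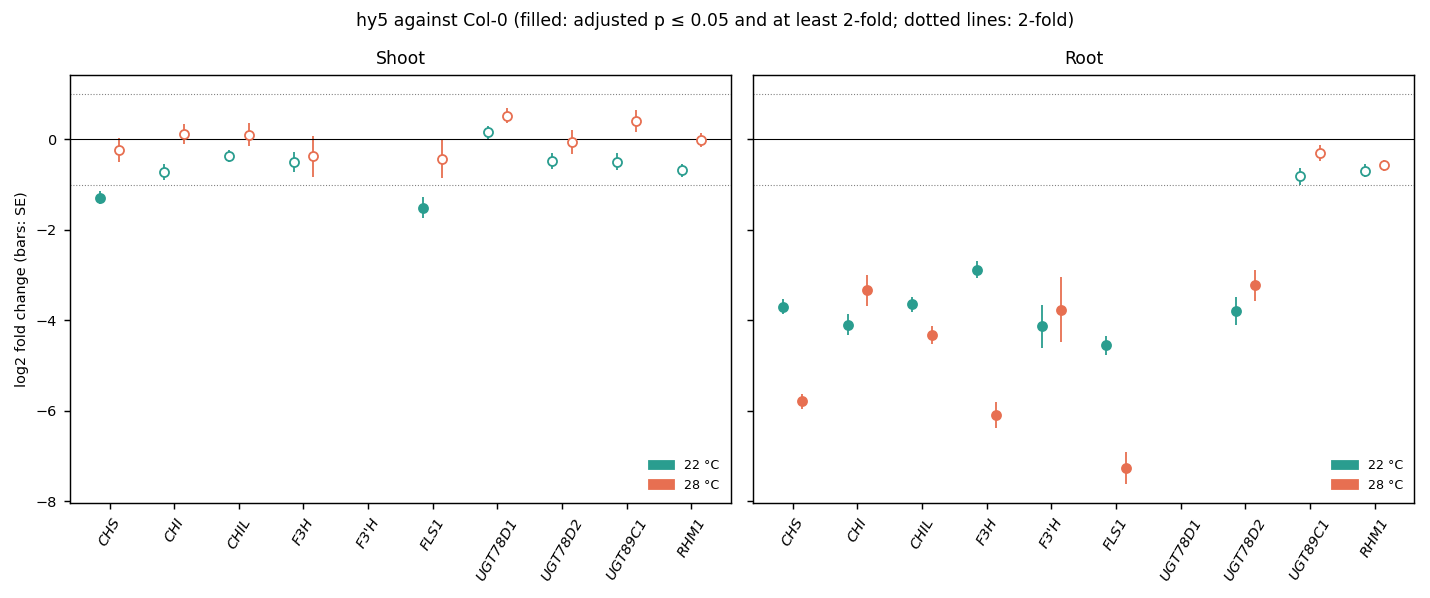
Log2 fold change of *hy5* against Col-0 for each member (horizontal axis) in the shoot and the root at 22 °C (green) and 28 °C (orange), with the SE as bars and filled points for an adjusted p of at most 0.05 and at least 2-fold. In the root 7 of 9 points are filled at each temperature, from -2.88 to -7.26, while *UGT89C1* and *RHM1* stay within 2-fold, and in the shoot only *CHS* and *FLS1* at 22 °C are filled. Members with no point were not tested.

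Whether the effect of *hy5* differed between root and shoot was tested by the interaction of genotype and tissue in 12 libraries. At both temperatures *UGT78D1* was too low to be tested between the root genotypes alone, and *F3'H* between the shoot genotypes alone. Both entered the interaction because the filter was set over the 12 libraries together. At 22 °C, 8 of 10 members were called, all with the lower value of *hy5* in the root, against 6.48% of 17911 genes and 3.68% in that direction. All 6 leaf markers (-1.69 to -1.09) and 1 of 6 root markers were called in that direction too, against 1 leaf and 0 root markers at 28 °C. The part of this marker shift in the result was not tested. For the members at 22 °C the values were as follows. The interaction was -2.42 for *CHS*, -3.38 for *CHI*, -3.29 for *CHIL* and -3.05 for *FLS1*, on the log2 scale. *UGT89C1* (-0.33) and *RHM1* (-0.02) were not called (adjusted p = 0.605 and 0.986). The call of *UGT78D1* (-2.17, adjusted p = 0.00392) was lost without the Col-0 root library 3 at 22 °C (-1.57, adjusted p = 0.0742). At 28 °C, 6 of 10 members were called, from -3.20 for *UGT78D2* to -6.84 for *FLS1*, against 4.52% of 18045 genes and 2.61% in that direction. *F3'H* (-3.40, adjusted p = 0.101) was not called there, and passed at -6.23 (adjusted p = 0.0425) without the *hy5* root library 2 that held all its counts. *UGT78D1* (-1.23, adjusted p = 0.305) and *UGT89C1* (-0.75, adjusted p = 0.150) were not called either. Nor was *RHM1* (-0.60, adjusted p = 0.0750), which passed in 2 of 12 fits with a library left out. These interactions share libraries with the comparisons above and are not independent of them.

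Most members fell with warmth in the Col-0 shoot. Of 9 tested members 7 fell at 28 °C and none rose, against 5.31% of 15697 genes called and 3.15% called lower, and all 9 had every 28 °C library below every 22 °C library, against 22.5% of genes. *CHS* went from 181, 115 and 123 CPM to 43.6, 34.0 and 23.2 CPM. The groups were well apart, with a change of -2.02 ± 0.17 or 4.06-fold (adjusted p = 1.35e-09). *FLS1* went from 30.2, 24.3 and 25.6 CPM to 6.36, 8.39 and 2.53 CPM, a change of -2.17 ± 0.27 (adjusted p = 1.06e-06) that was the largest of the 9. *UGT89C1*, which was not called between genotypes, went from 38.1, 25.6 and 27.7 CPM to 9.54, 11.7 and 8.43 CPM. Its change of -1.58 ± 0.22 or 2.98-fold (adjusted p = 5.15e-06) was of the size of those of *CHIL* (-1.53) and *F3H* (-1.76).

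*CHIL* went from 61.8, 50.3 and 48.7 CPM to 23.2, 18.5 and 12.6 CPM in the Col-0 shoot, and *F3H* from 31.1, 16.6 and 17.5 CPM to 8.18, 8.39 and 2.11 CPM. Both fell (adjusted p = 3.68e-07 and 1.95e-04) without overlap. *CHI* went from 53.5, 32.8 and 32.9 CPM to 20.4, 18.5 and 12.6 CPM (-1.17 ± 0.21, adjusted p = 1.28e-04). *UGT78D2* went from 41.2, 29.0 and 31.2 CPM to 14.5, 21.8 and 11.4 CPM (-1.04 ± 0.21, adjusted p = 5.03e-04). These 2 calls rested on single libraries: without the Col-0 shoot library 1 at 22 °C the values were -0.90 and -0.87, and without library 3 at 28 °C they were -0.99 and -0.85, all short of 2-fold, as was *UGT78D2* without library 1 at 28 °C (-0.97). With library 1 at 22 °C and library 3 at 28 °C left out together, 5 members were still called, and *CHI* (-0.72) and *UGT78D2* (-0.68) were not. *F3H* was at -1.0 then. *UGT78D1* (-0.68, adjusted p = 0.00298) and *RHM1* (-0.53, adjusted p = 0.00755) were lower by less than 2-fold. The median of the 9 was -1.53, against 0.01 over all genes.

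In the *hy5* shoot 2 of 9 tested members fell at 28 °C, *CHIL* and *F3H*, against 3.59% of 15680 genes called and 1.82% called lower. *CHIL* went from 41.9, 44.1 and 42.7 CPM to 26.4, 19.2 and 13.3 CPM (-1.07 ± 0.18, adjusted p = 1.81e-04). *F3H* went from 13.6, 18.2 and 14.8 CPM to 7.23, 4.80 and 2.38 CPM (-1.63 ± 0.31, adjusted p = 5.53e-04). Neither gene overlapped between temperatures, as was so for 5 of 9 members in the lower direction, against 19.9% of genes. *CHS* went from 66.7, 70.5 and 38.8 CPM to 39.5, 32.9 and 13.3 CPM, and its overlapping groups differed by -0.97 ± 0.23 (adjusted p = 0.00504), just short of 2-fold. *FLS1* went from 14.6, 9.26 and 5.67 CPM to 5.53, 2.58 and 5.24 CPM (-1.09 ± 0.38, adjusted p = 0.0522). Without *hy5* library 3 at 22 °C or without library 1 at 28 °C both *CHS* and *FLS1* were called, which made 4 of 9, and without library 3 at 28 °C *CHIL* was at -0.89.

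*CHI* went from 25.3, 29.9 and 18.7 CPM to 20.8, 21.0 and 14.8 CPM in the *hy5* shoot (-0.33, adjusted p = 0.301), with overlapping groups. *UGT89C1* was lower by less than 2-fold (-0.68 ± 0.22, adjusted p = 0.0317), and with *CHIL*, *F3H* and *CHS* it made 4 of 9 lower by the adjusted p alone, against 9.32% of genes. By DESeq2 only *CHIL* and *F3H* passed. With a library left out the adjusted p of *CHS* reached 0.0512 and that of *UGT89C1* 0.156. *UGT78D1* (-0.32, adjusted p = 0.172), *UGT78D2* (-0.62, adjusted p = 0.0607) and *RHM1* (0.13, adjusted p = 0.670) did not pass the test. The median of the 9 was -0.68, against 0.01 over all genes. The median in Col-0 cannot be set against it as a test, since only the interaction compares the 2 responses.

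That interaction of genotype and temperature in the shoot was called for 0 of 9 tested members, against 1.03% of 16429 genes. The values of the 9 ran from 0.12 to 1.06, with a median of 0.65 against 0.002 over all genes. A positive value means a smaller fall, or for *RHM1* a rise, in *hy5*. DESeq2 also called 0 by the adjusted p. The interaction of *CHS* was 1.04 ± 0.33 (adjusted p = 0.149). It passed without the Col-0 shoot library 1 at 28 °C (1.28, adjusted p = 0.0231) and without the *hy5* shoot library 3 at 28 °C (1.34, adjusted p = 0.00690), and was 0.63 (adjusted p = 0.733) with the Col-0 shoot library 1 at 22 °C and library 3 at 28 °C left out together. It also passed with no filter on low counts (1.04, adjusted p = 1.01e-04) and with the replicate number as a block (1.02, adjusted p = 0.00999). No call of a difference between the genotypes in the response of the shoot was made in the fit as described, and that of *CHS* depended on these settings.

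In the Col-0 root 5 of 9 tested members fell at 28 °C and none rose, against 2.44% of 15743 genes called and 1.49% called lower. No overlap between temperatures, in the lower direction, was seen for 8 of 9, against 12.4% of genes. *CHI* went from 68.4, 92.8 and 84.7 CPM to 19.3, 16.4 and 23.2 CPM, and its change of -2.06 ± 0.18 or 4.16-fold (adjusted p = 4.67e-07) was the largest of the 9. *F3'H* went from 17.9, 12.3 and 11.4 CPM to 5.89, 3.40 and 4.03 CPM (-1.66 ± 0.34, adjusted p = 0.00504). *CHIL*, *F3H* and *FLS1* fell to a like degree, at -1.11, -1.19 and -1.15 (adjusted p = 1.51e-05, 3.15e-05 and 3.35e-05). *CHS* went from 596, 460 and 414 CPM to 265, 276 and 279 CPM. Although these libraries did not overlap, the change of -0.85 ± 0.12 (adjusted p = 1.35e-04) was under 2-fold. *UGT78D2* (-0.95, adjusted p = 0.00474) was close to the fold limit, and *UGT89C1* (-0.57, adjusted p = 0.0666) and *RHM1* (0.19, adjusted p = 0.445) did not pass the test. The median of the 9 was -1.11, against 0.01 over all genes. Leaf markers summed to 636 to 763 CPM at 22 °C and to 360 to 480 CPM at 28 °C. By the adjusted p 4 of these 6 were lower, 1 of them by at least 2-fold. Root markers summed to 5428 to 6124 CPM and to 4186 to 4326 CPM. Of these 6, 4 passed the adjusted p, with 1 lower, and none reached 2-fold. The part of these shifts in the result was not tested.

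In the *hy5* root the low levels at 22 °C dropped again for some enzymes. Of 7 tested members (*F3'H*, *UGT78D1* and *UGT78D2* were too low) 4 fell at 28 °C and none rose, against 1.73% of 16445 genes called and 0.626% called lower. *CHS* went from 48.6, 34.5 and 31.5 CPM to 6.25, 5.38 and 2.28 CPM. The groups were well apart, and *CHS* fell by 2.96 ± 0.25 or 7.76-fold (adjusted p = 2.59e-10). *F3H* went from 25.8, 24.0 and 14.2 CPM to 0.261, 0.768 and 2.28 CPM, or from 198 counts to 10. Its level was 22.3-fold higher at 22 °C by pooled counts (exact 95% interval 11.9 to 47.2, counting error only), with a fitted change of -4.40 ± 0.40 (adjusted p = 1.68e-09). *FLS1* went from 3.68, 6.35 and 3.81 CPM to 0.521, 0.256 and 0 CPM, or from 44 counts to 3. By pooled counts the ratio was 16.5 (exact 95% interval 5.29 to 83.1, counting error only), with a fitted adjusted p of 2.50e-04, and DESeq2 gave it no adjusted p. *CHIL* went from 14.0, 11.9 and 10.7 CPM to 2.87, 3.59 and 4.17 CPM (-1.79 ± 0.32, adjusted p = 3.40e-04).

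*CHI* went from 6.62, 4.42 and 3.46 CPM to 2.61, 2.31 and 0.379 CPM in the *hy5* root, a change of -1.32 ± 0.48 that did not pass (adjusted p = 0.103). *UGT89C1* (-0.07, adjusted p = 0.883) and *RHM1* (0.29, adjusted p = 0.175) did not pass the test either. No overlap in the lower direction was seen for 5 of 7, against 11.3% of genes. The interaction of genotype and temperature in the root was called for 3 of 10 members, all with the larger fall in *hy5*, against 1.41% of 16982 genes and 0.365% in that direction. It was -2.08 ± 0.28 for *CHS* (adjusted p = 2.41e-05), -3.19 ± 0.44 for *F3H* (adjusted p = 3.24e-05) and -2.68 ± 0.61 for *FLS1* (adjusted p = 0.0149). *CHS* and *F3H* passed under every alternative run. *FLS1* did not pass with DESeq2 (adjusted p = 0.0850), without *hy5* root library 2 at 22 °C (-2.34, adjusted p = 0.0881) or without library 2 (-2.59, adjusted p = 0.0967) or library 3 (-2.31, adjusted p = 0.0804) at 28 °C. *CHI* (0.78, adjusted p = 0.639) and *CHIL* (-0.66, adjusted p = 0.361) were not called. In the same test the 6 leaf markers ran from 0.72 to 1.15, and 1 was called. Of the 6 root markers (-1.02 to 0.83), 1 was called higher and 1 lower. The part of this marker shift in the result was not tested.

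**Figure D3:**
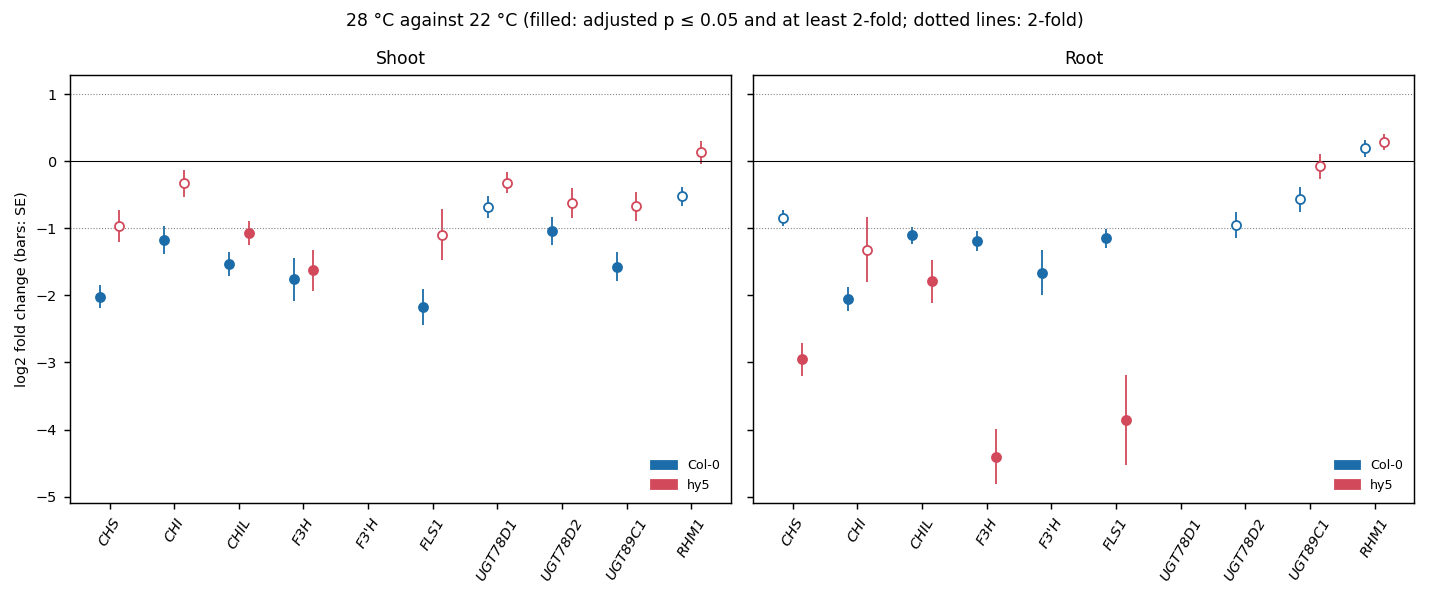
Log2 fold change of 28 °C against 22 °C for each member (horizontal axis) in shoot and root, for Col-0 (blue) and *hy5* (red), with the SE as bars and filled points for an adjusted p of at most 0.05 and at least 2-fold. In the shoot the Col-0 points lie below the *hy5* points, as for *CHS* at -2.02 and -0.97, and in the root the *hy5* points of *CHS*, *F3H* and *FLS1* lie below those of Col-0. Members with no point were not tested.

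Between tissues some members turned direction with the genotype and others did not. In Col-0 at 22 °C 7 of 10 members were higher and 1 was lower in the root than in the shoot, against 17.4% of 16324 genes called higher and 24.1% called lower. The log2 differences were 1.87 for *CHS*, 2.90 for *F3H*, 2.40 for *F3'H* and 2.11 for *FLS1*. *UGT78D1* was the 1 lower member (-2.69, adjusted p = 1.11e-08, and -3.30 without the Col-0 root library 3), and *UGT78D2* overlapped between the tissues (0.05, adjusted p = 0.830). *CHI* (1.09) dropped to between 0.95 and 0.98, under 2-fold, without the Col-0 shoot library 2 or 3 or the Col-0 root library 2, and *RHM1* (1.09) to 0.97 without the Col-0 shoot library 2. In *hy5* at 22 °C 0 of 9 tested members were higher and 5 were lower in the root, against 17.3% of 17016 genes called higher and 24.3% called lower. The 0 rests on *RHM1*, which was higher in the root by 0.99 (adjusted p = 2.87e-06), just short of 2-fold, and passed by DESeq2, at 1.01 with the replicate block and with a mean of at least 10 counts, at 1.68 with library size alone, and at 1.06 to 1.12 in 4 of 6 fits with a library left out. *CHI* (-2.36), *CHIL* (-1.81), *UGT78D1* (-4.94) and *UGT78D2* (-3.35) were lower in the root. The call of *FLS1* (-1.03, adjusted p = 0.0146) was lost without the *hy5* shoot library 1 (-0.69) or the *hy5* root library 1 (-0.87) or 3 (-0.88). Library size in place of trimmed means moved the median of all genes by 0.47 in Col-0 and by 0.68 in *hy5*, towards the root. It left the 7 and 1 of Col-0, and made 2 higher and 4 lower in *hy5*. Calls of all genes in the higher direction then went from 41.8% to 61.5% of calls in Col-0 and from 41.6% to 67.7% in *hy5*. Shares of this kind also shifted for *hy5* against Col-0 in the shoot at 22 °C (40.1% to 27.7%), for genotype and temperature in the shoot (55.0% to 69.4%) and for genotype and tissue at 22 °C (43.2% to 61.0%) and 28 °C (42.3% to 66.3%), with no change in the members called.

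The summed level of the 10 loci was 1235 ± 158 CPM (SD, n = 3) in the Col-0 root at 22 °C and 203 ± 29.8 CPM in the *hy5* root, a ratio of 6.07. At 28 °C it was 705 ± 29.7 CPM in the Col-0 root and 151 ± 10.6 CPM in the *hy5* root, a ratio of 4.67. In the shoot at 22 °C it was 463 ± 100.2 CPM for Col-0 against 297 ± 51.6 CPM for *hy5*, and 183 ± 40.2 CPM and 193 ± 41.3 CPM at 28 °C. The sum stood highest in the Col-0 root, and in the warm shoot its SD was larger than the difference between the genotypes. Its makeup also differed between groups. *CHS* made up 39.5% of the sum in the Col-0 root at 22 °C, 18.6% in the *hy5* root at 22 °C and 3.14% in the *hy5* root at 28 °C. *RHM1* made up 12.1%, 46.0% and 75.5% in the same groups. *RHM1* serves other pathways as well, since UDP-rhamnose is also used for cell wall pectin. In the shoot *UGT78D1* made up 9.07% in Col-0 and 16.2% in *hy5* at 22 °C, and 14.3% and 19.4% at 28 °C.

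**Figure D4:**
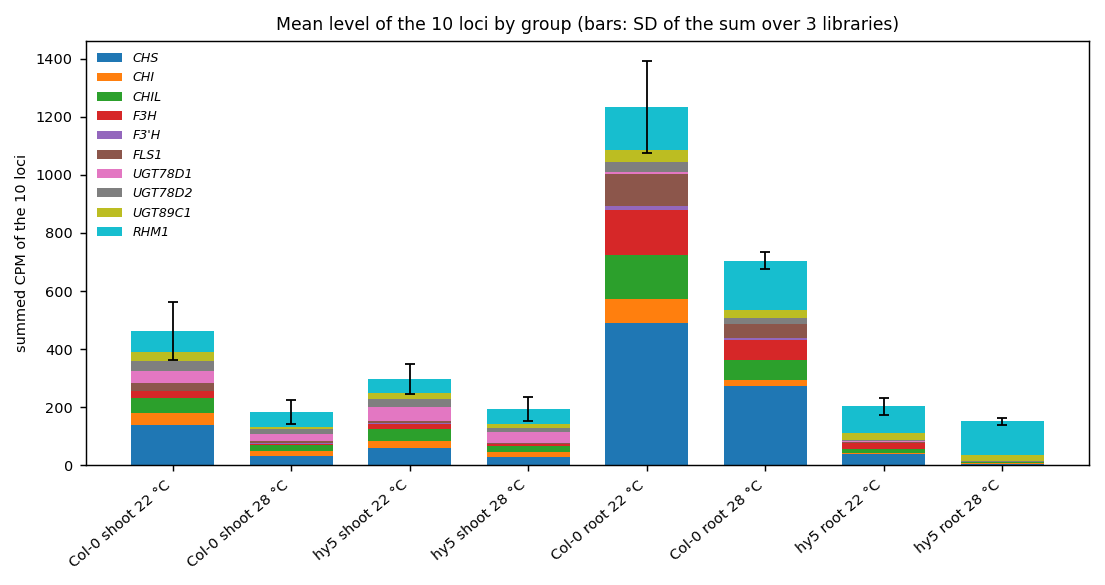
Stacked mean CPM of the 10 loci on a vertical axis that starts at 0, by group on the horizontal axis, with bars for the SD of the sum over 3 libraries. The Col-0 root at 22 °C reaches 1235 CPM with *CHS* as the largest part, and the *hy5* root at 28 °C keeps 151 CPM, mostly *RHM1*.

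Over the 8 group means of log2 CPM, the correlation of each member with the average of the other 9 was highest for *CHIL* (r = 0.994), *FLS1* (0.965), *CHS* (0.951), *F3'H* (0.949) and *CHI* (0.938). It was 0.855 for *UGT78D2*, 0.842 for *F3H*, 0.465 for *UGT89C1*, 0.186 for *UGT78D1* and 0.148 for *RHM1*. Among the 45 pairs it ran from -0.82 (*UGT78D1* and *RHM1*) to 0.997 (*CHS* and *FLS1*), with a median of 0.67. These values describe 8 points that share libraries, tissue and depth. Of 16686 genes with a mean of at least 10 counts, the 5 outside the 10 loci most like their average were AT5G22020 (r = 0.984), *PHR1* (0.981), AT1G19140 (0.974), AT3G57020 (0.969) and *SAHH2* (0.955), over the same 8 means. *PHR1* (AT1G12370) encodes a photolyase that repairs ultraviolet damage to DNA and *SAHH2* an S-adenosyl-homocysteine hydrolase. AT5G22020 and AT3G57020 are annotated as calcium-dependent phosphotriesterase superfamily proteins. *PHR1* averaged 16.1 CPM in the Col-0 root and 2.69 CPM in the *hy5* root at 22 °C, and AT5G22020 averaged 37.8 CPM and 11.7 CPM.

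The neighbours of the pathway are given by list. Of 8 entry enzymes, which turn phenylalanine into coumaroyl-CoA, 7 were tested between genotypes in the root at 22 °C, with 1 lower and 1 higher. The lower was *4CL3* (-2.16, adjusted p = 0.00154), the 4-coumarate:CoA ligase tied to flavonoids, at 10.1 to 14.8 CPM in Col-0 and 1.1 to 6.26 CPM in *hy5*. The higher was *PAL4* (1.29, adjusted p = 4.52e-06), at 26.7 to 30.9 CPM in Col-0 and 61.1 to 77.2 CPM in *hy5*. *4CL3* was also lower in *hy5* in the root at 28 °C (-2.96) and in the shoot at 22 °C (-1.44). Of 8 genes of the late anthocyanin branch none passed the low-count filter in the root. In the shoot at 22 °C 3 were tested and 2 fell in *hy5*, *LDOX* (-1.30) and *GSTF12* (-1.44), which were named after their values were seen, as was *DFR*. *DFR*, *LDOX* and *GSTF12* fell at 28 °C in the Col-0 shoot (-2.92, -1.80 and -3.51), and the interaction of genotype and temperature there was called for these 3 of 4 late genes tested (3.13, 2.87 and 3.71). Late genes and members were not tested against each other.

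Of 11 regulators, 5 were tested between genotypes in the root at 22 °C and 2 fell. *MYB12*, the flavonol MYB of the root, was at 14.8 to 22.5 CPM in Col-0 and 0.552 to 2.08 CPM in *hy5* (-3.77 ± 0.42, adjusted p = 4.02e-07). At 28 °C it held 163 counts in Col-0 and 4 in *hy5* (fitted adjusted p = 4.91e-09). Between temperatures in the Col-0 root it differed by -0.11 ± 0.24 and did not pass the test (adjusted p = 0.857). *HYH*, the closest homolog of *HY5*, was at 26.7 to 38.1 CPM in the Col-0 root and 4.14 to 7.27 CPM in the *hy5* root (-2.49 ± 0.27, adjusted p = 2.33e-07). *MYB11* and *MYB111* had at most 2 and 4 counts in any root library. Of 11 paralogs of the members, 8 were tested in the root at 22 °C and 1 rose. This was *FLS5*, a relative of *FLS1*, at 80.3 to 107 CPM in Col-0 and 195 to 218 CPM in *hy5* (1.20 ± 0.14, adjusted p = 7.19e-07). At 28 °C *FLS5* was at 66.2 to 97.9 CPM in the Col-0 root and 278 to 319 CPM in the *hy5* root (1.95 ± 0.12, adjusted p = 7.22e-12), opposite in direction to *FLS1* in the same libraries.

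Several members share sequence or overlap other genes. On TAIR10.1 *F3H* (chromosome 3, 19025192 to 19026872) lies opposite the non-coding RNA AT3G51238 over 1588 bases, which held 0 to 3 counts in every library. *UGT89C1* (chromosome 1, 1820308 to 1821894) lies opposite AT1G06002 over 1580 bases, which held 4 to 28 counts. *RHM1* (chromosome 1, 29549540 to 29552438) shares 99 bases with *TPS1* on the other strand, which held 18 to 70 counts, and *CHS* (chromosome 5, 4488476 to 4490264) shares 2 bases with AT5G13940. The sources do not state whether counting used the strand of a read, and how reads within the shared bases were assigned was not tested. In the Col-0 root at 22 °C *F3H* held 184 to 401 counts per library where AT3G51238 held 0 to 3. Of the last 500 transcript bases of each member, only those of *UGT78D2* matched another gene, *UGT78D1*, at 83.7% identity over 453 bases.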

How the data were processed

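RNA was read by 3′Tag-Seq in 24 libraries. The authors aligned the reads to the TAIR10 genome with HISAT2 and counted them per gene with HTSeq; tool versions and the strand setting are not given in the sources used here. The deposited values are whole-number counts without normalization, in 4 tables, and no column was left out. The tables' TAIR10 identifiers were matched to the RefSeq annotation of TAIR10.1 (32548 of 33977).

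Comparisons of 2 groups were fitted on 6 libraries and interactions on 12, in R 4.3.3 with edgeR 4.0.16 (filterByExpr at its minimum count of 10 and total count of 15, TMM, quasi-likelihood F-test, Benjamini-Hochberg adjustment over all genes tested). Every adjusted p in the text without another name comes from this test. A call needed an adjusted p of at most 0.05 and, between 2 groups, a change of at least 2-fold. The SE is the absolute log2 fold change divided by the square root of F, and is approximate. CPM levels were scaled over all 24 libraries, so they differ slightly from the scaling inside each fit. Group means of log2 CPM used a pseudocount of 0.5. Ratios of pooled counts carry exact 95% binomial intervals for members with at most 15 counts in a group. The 3′ ends were searched with blastn 2.17.0+.

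Pathway genes other than the 10 were named by the smallest adjusted p between the root genotypes at 22 °C, at most 4 per list, unless said otherwise. The members and lists were chosen with earlier results of these data known. Alternatives were DESeq2 1.42.0, library size alone, no filter, a mean of at least 10 counts, a replicate block, a joint fit of a tissue, calls by adjusted p without a fold, and omission of each library in turn. Replicates of a group differed by a chi-square per degree of freedom of 1.45 to 4.25 over 24 pairs, so none was counted as a repeat of another.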

Additional observations from a re-analysis of the deposited data

Results flagged for a closer look

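The effect of *hy5* differed between root and shoot at 22 °C, by the test of the interaction itself, for 8 members on the log2 scale: *CHS* (-2.42), *CHI* (-3.38), *CHIL* (-3.29), *F3H* (-2.38), *F3'H* (-4.13), *FLS1* (-3.05), *UGT78D1* (-2.17) and *UGT78D2* (-3.32). Their adjusted p ran from 4.86e-14 for *CHIL* to 0.00392 for *UGT78D1*. The call of *UGT78D1* was lost without the Col-0 root library 3 (adjusted p = 0.0742). All 6 leaf markers were called in the same direction (-1.69 to -1.09), and the part of this shift was not tested. At 28 °C the effect of *hy5* differed between the tissues for 6 members: *CHS* (-5.59), *CHI* (-3.48), *CHIL* (-4.46), *F3H* (-5.75), *FLS1* (-6.84) and *UGT78D2* (-3.20), with adjusted p from 9.62e-13 for *CHS* to 2.33e-05 for *UGT78D2*. In the root the change from 22 °C to 28 °C differed between Col-0 and *hy5* for *CHS* (-2.08), *F3H* (-3.19) and *FLS1* (-2.68). These 3 tests share their *hy5* root libraries at 28 °C, where *F3H* held 10 counts and *FLS1* held 3 counts over 3 libraries.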

How the results depend on the processing

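Single values kept their direction and their side of the call 942 times with a library left out and 781 times under another setting, lost the call 17 and 5 times, gained it 16 and 24 times, and changed sign 27 and 3 times. Without a fold cutoff 4 members were called between the shoot genotypes at 22 °C and 4 between temperatures in the *hy5* shoot, in place of 2 each. The latter count ran from 2 to 4 with a library left out. The interaction of genotype and temperature in the shoot called 1 member in place of 0 with no filter and with the replicate block (*CHS*, adjusted p = 1.01e-04 and 0.00999), and 0 to 1 with a library left out. Leaving out the Col-0 shoot library 1 at 22 °C and library 3 at 28 °C together, an alternative chosen after seeing the data, gave 5 calls in place of 7 for temperature in the Col-0 shoot. The interaction of genotype and temperature in the root called 2 members in place of 3 with DESeq2 and without *hy5* library 2 at 22 °C, or 2 or 3 at 28 °C. In the other comparisons and settings the number of members called moved by less than 1.5 times.

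Sign changes were of values that had not passed the call, and the cause was not tested. With library size alone *CHS* between tissues of *hy5* was 0.062 and *RHM1* by genotype and tissue at 22 °C was 0.12, and without the 2 Col-0 shoot libraries *F3H* by genotype and temperature was -0.62. With a library left out, the shoot genotypes at 28 °C gave -0.51 to 0.069 for *CHS*, -0.059 to 0.25 for *CHI*, -0.15 to 0.30 for *CHIL*, -0.25 to 0.24 for *UGT78D2* and -0.15 to 0.13 for *RHM1*. Temperature gave -0.088 to 0.26 for *RHM1* in the *hy5* shoot and -0.17 to 0.042 for *UGT89C1* in the *hy5* root. Tissue gave -0.074 to 0.19 for *UGT78D2* in Col-0 and -0.066 to 0.23 for *UGT89C1* in *hy5*. The interactions gave -0.29 to 0.42 for *F3H* (temperature, shoot), -2.50 to 0.99 for *F3'H* and -0.15 to 1.03 for *UGT78D2* (temperature, root), and -0.24 to 0.11 for *RHM1* (tissue, 22 °C).

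Same-numbered replicates of different groups correlated at -0.07 to 0.19 in their deviations from the group means, and in no comparison were all 3 over 0.1, so the numbers were not taken as pairs. In 3 of 10 comparisons every same-numbered correlation was above those of other numbers. The replicate block also gave the call to *CHS* between temperatures in the *hy5* shoot (-1.02) and to *RHM1* between tissues of *hy5* (1.01), and took none away. Depth limits *F3'H* in the *hy5* root, *FLS1* and *F3H* in the *hy5* root at 28 °C and *UGT78D1* in the whole root.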

Other observations

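*FLS5* and *HYH* moved with temperature outside the comparisons described above. *FLS5* rose in the *hy5* shoot from 17.7 to 31.8 CPM at 22 °C to 48.5 to 68.2 CPM at 28 °C (1.28 ± 0.18, adjusted p = 2.05e-05), and in the Col-0 shoot it was higher at 28 °C by less than 2-fold (0.73 ± 0.21, adjusted p = 0.0121). *HYH* fell with warmth in the shoot of both genotypes, by 2.0 ± 0.15 in Col-0 and by 2.16 ± 0.17 in *hy5* (adjusted p = 1.35e-10 and 5.16e-09). Of the genes most like the members, *SAHH2* fell in the *hy5* root by 2.33 ± 0.15 at 22 °C and by 1.38 ± 0.13 at 28 °C (adjusted p = 4.13e-11 and 1.85e-08). AT3G57020 fell there by 2.21 ± 0.16 and 2.37 ± 0.17 (adjusted p = 2.31e-10 and 1.56e-10). These adjusted p are of edgeR's quasi-likelihood test, and the genes were picked from the same libraries for their likeness, so their direction is no independent result.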
